A study of Mus musculus with 4 samples.

Results

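The axoneme is the microtubule core of the sperm tail, and the genes described here encode its dynein motors, radial spokes and associated proteins. Members were all genes of the deposited matrix whose symbol consists of Dnah, Cfap or Rsph followed by a number and, in some, further letters. The rule used names alone and found 49 of 28692 genes. By their names and textbook roles they comprised 5 outer arm heavy chains, 9 inner arm heavy chains, 1 heavy chain of an unsure arm, 10 radial spoke genes, 6 central apparatus genes, 7 genes of proteins inside the doublet microtubules, 5 genes of inner arm tethers and modifiers, 5 other Cfap genes and 1 antisense RNA of a heavy chain gene.

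The cells came from testes of C57BL/6 mice on postnatal day 63 and were sequenced singly in droplets, where unique molecular identifiers (UMI) count transcripts from their 3' ends. The labels give 2 Phf7 tKO samples, of the genotype Stra8-Cre:Phf7 f/f, and 2 Phf7 f/f samples; all carry the floxed allele, and Stra8-Cre is a driver that acts in germ cells from spermatogonia on. Phf7 encodes a PHD-finger chromatin reader of the male germline. No label tied the 4 libraries in the matrix to a sample, so the matrix was 1 pooled sample, no genotype comparison was made and no p-value is given.

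Motile cilia and flagella share an arrangement in which doublet microtubules surround a central pair. Outer and inner dynein arms, each built on heavy chains with a motor domain, slide neighbouring doublets, while radial spokes and the central pair pass on the signals that order the sliding. In the testis the tail is built by haploid spermatids, and sperm use some heavy chain and spoke head paralogs in place of those used by the cilia of the airway.

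The promoters of the members whose timing is described next are shown first, since ciliary genes are known targets of RFX factors, which bind the X-box, and CREM binds the cAMP response element in spermatids. The windows come from RefSeq (GRCm38.p6), run from 250 bases before to 50 bases after a transcript start, and are written in the direction of transcription. Of the 49 members, 39 had a window. Capitals mark the X-box arm GTTGCC or its reverse complement GGCAAC, the cAMP response element TGACGTCA, and a mirrored pair in which GTTGC is followed after 2 to 5 bases by GCAAC, which can overlap an X-box arm. Dnah7a and Rsph3b stand for genes highest in spermatocytes, Cfap44 and Dnah6 for genes highest in the following class, and Dnah8 and Dnah9 for an early and a late outer arm gene with no match.
Dnah7a (chr1:53706735-53707034, minus strand): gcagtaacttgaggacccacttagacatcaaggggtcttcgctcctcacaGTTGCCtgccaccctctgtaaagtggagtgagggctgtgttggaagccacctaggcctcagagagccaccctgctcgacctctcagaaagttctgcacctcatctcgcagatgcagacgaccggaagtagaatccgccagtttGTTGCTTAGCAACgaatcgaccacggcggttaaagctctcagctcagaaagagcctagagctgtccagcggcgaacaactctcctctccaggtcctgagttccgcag
Rsph3b (chr17:6948307-6948606, minus strand): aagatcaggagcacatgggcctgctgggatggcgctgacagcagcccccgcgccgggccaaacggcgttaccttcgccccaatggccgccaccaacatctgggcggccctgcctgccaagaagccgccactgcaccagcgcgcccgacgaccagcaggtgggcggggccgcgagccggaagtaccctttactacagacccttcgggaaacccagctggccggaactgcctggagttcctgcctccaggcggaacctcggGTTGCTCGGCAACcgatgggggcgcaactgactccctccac
Cfap44 (chr16:44394549-44394848, plus strand): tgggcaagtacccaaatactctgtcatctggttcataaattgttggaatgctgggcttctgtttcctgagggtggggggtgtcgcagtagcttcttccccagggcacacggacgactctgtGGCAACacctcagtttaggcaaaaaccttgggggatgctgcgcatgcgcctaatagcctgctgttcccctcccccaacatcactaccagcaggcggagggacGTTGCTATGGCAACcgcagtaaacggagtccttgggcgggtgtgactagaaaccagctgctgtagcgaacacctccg
Dnah6 (chr6:73221582-73221881, minus strand): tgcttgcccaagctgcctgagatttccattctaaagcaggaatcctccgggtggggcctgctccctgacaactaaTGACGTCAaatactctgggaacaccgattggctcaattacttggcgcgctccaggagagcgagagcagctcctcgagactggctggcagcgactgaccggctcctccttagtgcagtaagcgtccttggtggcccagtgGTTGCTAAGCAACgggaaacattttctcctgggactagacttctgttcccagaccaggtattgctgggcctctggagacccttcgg
Dnah8 (chr17:30626686-30626985, plus strand): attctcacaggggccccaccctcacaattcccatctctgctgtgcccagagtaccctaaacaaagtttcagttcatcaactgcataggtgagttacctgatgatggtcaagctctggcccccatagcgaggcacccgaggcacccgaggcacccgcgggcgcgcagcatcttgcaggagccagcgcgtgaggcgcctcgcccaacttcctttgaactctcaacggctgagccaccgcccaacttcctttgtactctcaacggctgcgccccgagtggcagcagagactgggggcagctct
Dnah9 (chr11:66168502-66168801, minus strand): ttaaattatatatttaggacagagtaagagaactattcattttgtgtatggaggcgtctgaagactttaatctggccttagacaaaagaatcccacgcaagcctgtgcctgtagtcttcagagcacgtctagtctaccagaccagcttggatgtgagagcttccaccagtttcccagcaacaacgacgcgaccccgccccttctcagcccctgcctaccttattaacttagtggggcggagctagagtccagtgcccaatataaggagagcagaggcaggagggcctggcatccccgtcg

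The X-box arm lay on either strand in 12 of 39 member windows (30.8%), against 14.1% of 27025 genes. It was in 7 of 19 members highest in spermatocytes and in 5 of 19 highest in later classes. The mirrored pair, chosen after the windows had been read, lay in 6 of 39 members (15.4%), against 0.503% of all genes. The 6 were Dnah7a, Dnah7b, Dnah7c, Dnah6, Cfap44 and Rsph3b, of which the 3 Dnah7 genes are close copies. A pair of such arms facing each other at 0 to 4 bases was in 0 of 39 members and 0.189% of all genes. The cAMP response element was in 1 of 39 members, Dnah6, and in 2.03% of all genes. A match describes letters only.

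The matrix held 32273 barcodes and 190744950 UMI, with 44447735 to 50353091 UMI per library. After filters 29967 cells remained, of which 25.8% lay in clusters left unnamed. The 7 germ cell classes named from markers were spermatogonia-like (689 cells, mean of 4713 UMI per cell), leptotene/zygotene-like (473 cells, 4732 UMI), pachytene/diplotene-like (2117 cells, 15895 UMI), diplotene-to-round-spermatid-like (1747 cells, 11534 UMI), round spermatid-like (2933 cells, 3313 UMI), late round spermatid-like (2745 cells, 9128 UMI) and elongating spermatid-like (8764 cells, 8247 UMI). The class between diplotene and round spermatids carried markers of both stages, and 1 of the 5 elongating clusters was led by haemoglobin genes. Of the 3 late round clusters 2 scored slightly higher as round spermatids, and 1 of these held 63.0% of that class's UMI. In the diplotene-to-round-spermatid-like class 1 of 2 clusters, with 427 of the 1747 cells, held 74.9% of the UMI. Its levels differed from those of the other cluster in both directions. Dnah8 was at 68.8 against 206.5 CPM and Cfap36 at 1300.3 against 907.9 CPM. Depth was skewed within classes, with medians of 2521 to 6388 UMI per cell, and pooled levels weigh cells by their UMI. Doublets must be assumed to remain. Free RNA was present, since Prm2, a protamine gene of elongating spermatids, stood at 5799.9 CPM in spermatogonia-like and 11098 CPM in leptotene/zygotene-like cells. Phf7 itself measured 189.5 and 835 CPM in libraries 1 and 2 and 1211 and 246 CPM in libraries 3 and 4 in the pachytene/diplotene-like class, and libraries were not assigned from it. CPM are UMI of a gene per 1000000 UMI of the class.

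Transcripts of most members were highest in late spermatocytes and in the cells around the first spermatid stages, before the elongating class. A peak class, the germ cell class with the highest CPM, was given to the 46 members with at least 50 UMI in germ cells. It was pachytene/diplotene-like for 21, diplotene-to-round-spermatid-like for 15, round spermatid-like for 8 and late round spermatid-like for 2, and no member peaked in the spermatogonia-like, leptotene/zygotene-like or elongating class. Over all 15516 genes with a peak class, 27.3, 14.6, 17.5, 10.1, 13.1, 10.3 and 7.06% peaked in the 7 classes in developmental order, against 0, 0, 45.7, 32.6, 17.4, 4.35 and 0% of the members. The onset class, the first with at least 25% of the peak level, was spermatogonia-like for 1 member (Cfap20), leptotene/zygotene-like for 11, pachytene/diplotene-like for 27 and diplotene-to-round-spermatid-like for 7. Of all genes 61.2, 8.33, 10.4 and 11.5% had their onset in these 4 classes.

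The peak class was the same in all 4 libraries for 32 members, in 3 libraries for 8 and in 2 or fewer for 6. Peaks were broad, with a median ratio of the peak to the next class of 1.26 for members and 1.44 for all genes, so the order of neighbouring classes was often close. Other clusterings and filters on cells kept the peak class of 20 to 40 of the 46 and the onset class of 15 to 42, the lowest of each at resolution 0.5. With the onset set at 50% of the peak it was kept for 27. In CPM the peak level lay above every somatic class for 45 of the 46, against 69.8% of all genes with a peak class, and Dnah2 was the exception, at 28.9 CPM in Leydig-like cells. The 3 members without a peak class were Dnah2os, Dnah11 and Rsph4a.

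**Figure D1:**
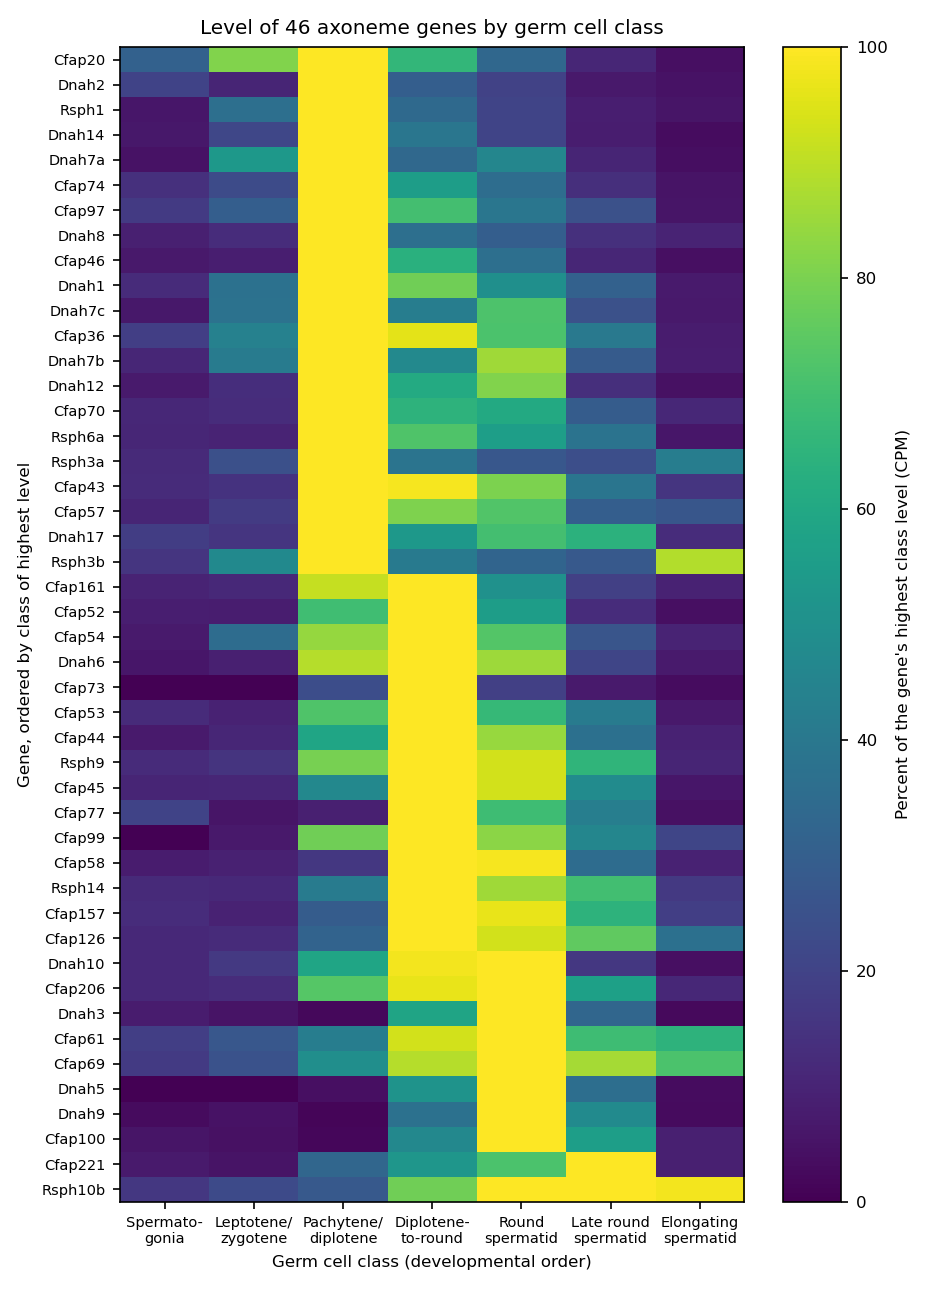
Level of the 46 members with a peak class in each germ cell class, in CPM as a percent of the gene's highest class, with classes in developmental order on the horizontal axis and genes ordered by peak class on the vertical axis. The upper 21 genes peak in the pachytene/diplotene-like class, and Rsph10b, Rsph3b, Cfap69 and Cfap61 are at 64.5% or more of their peak in the pooled elongating class.

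Most members rose on entry into the pachytene/diplotene-like class. A member was called higher or lower when the later class differed from the earlier by 2-fold or more in the pool and in the same direction in each library, among genes with at least 50 UMI over both. From leptotene/zygotene-like to pachytene/diplotene-like cells 34 of 43 members tested rose and 1 fell, while 23.6% of all 11366 genes tested were called higher and 33.5% lower. The members' median log2 ratio was 2.02 and that of all genes -0.33. The risers held 7 of 9 inner arm heavy chains, 5 of 6 central apparatus genes, 7 of the 9 radial spoke genes tested and both outer arm heavy chains tested. With clusters at resolution 0.5 in place of 1, 34 members rose a step earlier, over spermatogonia-like cells, and 10 at this step.

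At the step before, from spermatogonia-like to leptotene/zygotene-like cells, 7 of 25 members tested rose and 1 fell, against 10.4% and 19.2% of all genes. The 7 were Dnah7a, Rsph1, Dnah14, Dnah1, Cfap20, Cfap36 and Rsph3a, and Cfap77 fell. Without library 3 the log2 ratio of Rsph3a was 0.67 at this step. In leptotene/zygotene-like cells 25 of 46 members had no more UMI per cell than the highest somatic class, Cfap77 among them, while all 7 risers had more, and the part of free RNA in levels this low was not tested. At the step into the diplotene-to-round-spermatid-like class 12 of 45 members were higher (26.7%) and 9 lower (20%), against 26.2% and 28.4% of all genes. These shares were near those of all genes, so no trait of the members is read from them. The 9 became 4 with at least 1000 genes required per cell, 3 without the top 6% of doublet scores and 1 with the mean of per-cell CPM. From there to round spermatid-like cells 2 of 45 rose, Dnah9 and Cfap100, and 0 fell, against 17.2% and 6.98% of all genes. Under the same 3 settings 17, 15 and 8 members were lower at this step, so its count of 0 rests on which cells enter and how they are weighted.

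Levels then fell. In late round over round spermatid-like cells 24 of 45 members were lower and 0 higher, against 31% and 10.1% of all genes, with a median log2 ratio of -1.06 for members and -0.48 for all genes. In elongating over late round spermatid-like cells 35 of 45 were lower and 1 higher, against 57.1% and 3.49% of all genes, with medians of -1.62 and -1.28. With at least 1000 genes per cell 14 members were lower at the first of these 2 steps, and with up to 20% mitochondrial UMI allowed 23 were lower at the second. Without the deepest late round cluster, a setting added after seeing the data, 32 and 30 were lower at these steps, and all 46 peak classes were kept. Measured relative to the median gene, 12 members were lower at the first of these steps, and 13 were lower and 6 higher at the second. The mean UMI per cell changed along with these steps, as listed above, and its part in them was not tested.

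**Figure D2:**
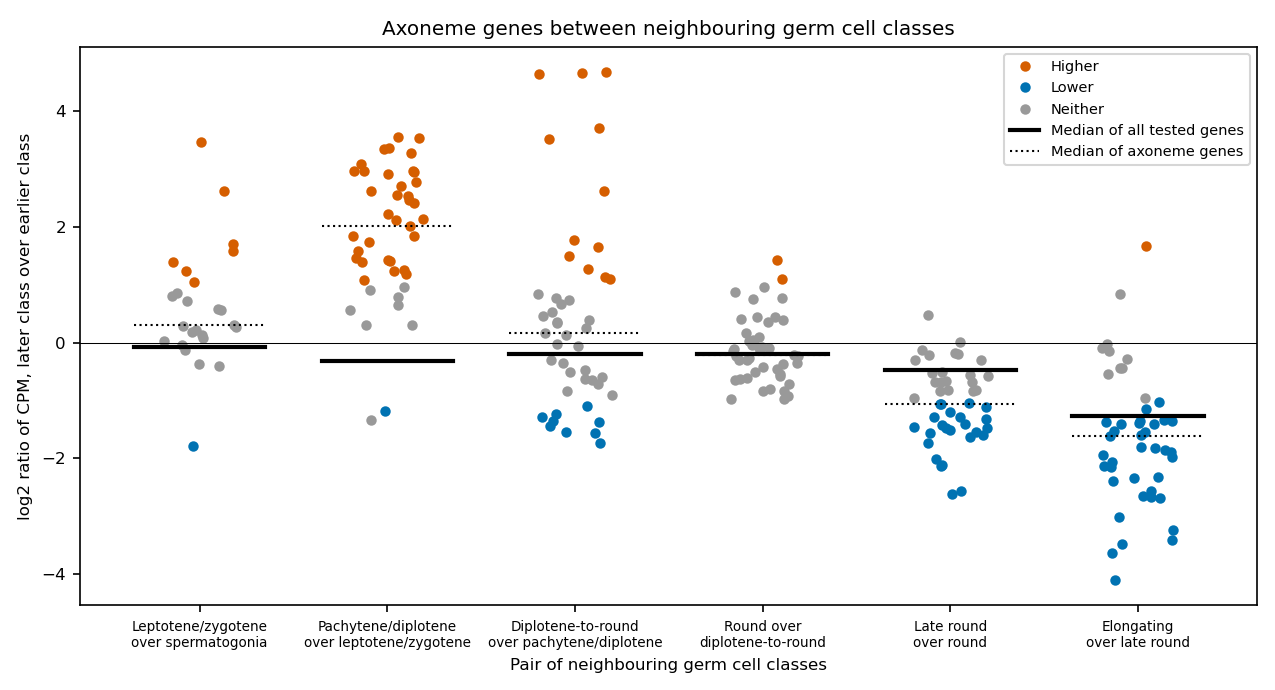
Log2 ratio of CPM of each member tested, later over earlier class, for the 6 pairs of neighbouring germ cell classes. Solid bars mark the median of all genes tested and dotted bars that of the members, which lies at 2.02 against -0.33 for pachytene/diplotene-like over leptotene/zygotene-like cells.

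By their onset class, outer arm heavy chains fell into an early and a late pair. Dnah8, a heavy chain of the sperm outer arm, measured 315, 258, 289 and 274 CPM in libraries 1 to 4 in pachytene/diplotene-like cells, against 33.2, 34.8, 37.4 and 38.8 CPM in leptotene/zygotene-like cells. All 4 libraries of the later class lay above all 4 of the earlier, and the pooled log2 ratio was 2.97 (95% interval 2.65 to 3.30). In the diplotene-to-round-spermatid-like class it fell to 103 CPM, against 283 CPM in the class before, a log2 ratio of -1.45, which was -0.58 without the top 6% of doublet scores and -0.37 with the mean of per-cell CPM.

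Dnah17, its partner in the sperm outer arm, measured 43.1, 42.3, 49.4 and 39.2 CPM in pachytene/diplotene-like cells, against 7.38, 13.0, 2.88 and 5.55 CPM in leptotene/zygotene-like cells (log2 ratio 2.70, 1.98 to 3.54). The libraries again did not overlap. Dnah17 stayed at 23.3, 30.6 and 28.0 CPM through the diplotene-to-round, round and late round classes and fell to 5.52 CPM in elongating cells (log2 ratio against late round cells -2.34). The diplotene-to-round clusters were at 49.1 and 14.6 CPM, against 42.9 to 44.5 CPM in the pachytene/diplotene-like clusters. The pooled step down between these classes was thus seen only in the cluster with most of the UMI.

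Dnah9 and Dnah5 encode outer arm heavy chains of motile cilia of the airway. Dnah9 was at 0.530, 0.760, 1.02 and 0.745 CPM in pachytene/diplotene-like cells, at 24.0, 17.7, 22.9 and 13.6 CPM in diplotene-to-round-spermatid-like cells and at 65.5, 42.2, 55.2 and 52.4 CPM in round spermatid-like cells. Each step was an increase in each library, with log2 ratios of 4.68 (4.10 to 5.31) and 1.43 (1.24 to 1.62). At resolution 2 the second ratio was 0.968, just short of the call. Dnah9 fell to 1.48 CPM in elongating cells, against 25.5 CPM in late round cells.

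Dnah5 followed the same course at few counts, with 44 UMI at its peak of 4.53 CPM (3.29 to 6.08) in round spermatid-like cells and 6 UMI in pachytene/diplotene-like cells. It had 0 UMI in spermatogonia-like and leptotene/zygotene-like cells, which allows up to 0.924 and 1.34 CPM at a count of 3. Dnah11, the other ciliary outer arm heavy chain, had 11 UMI over all germ cell classes.

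**Figure D3:**
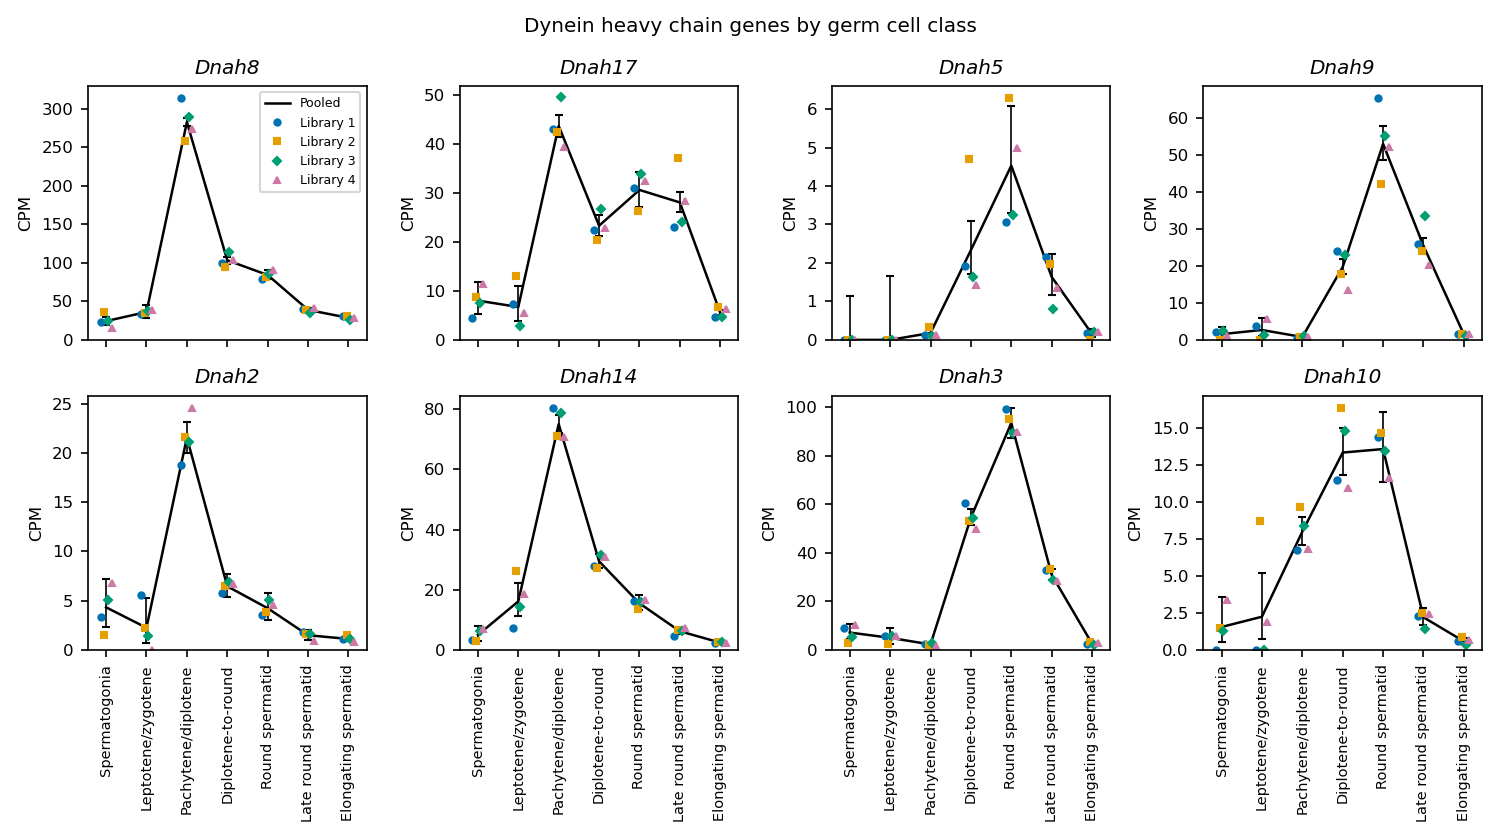
CPM of 8 dynein heavy chain genes in 7 germ cell classes in developmental order. Lines are the pooled level with exact Poisson intervals and points are the 4 libraries, with Dnah8, Dnah17, Dnah2 and Dnah14 highest in the pachytene/diplotene-like class and Dnah5, Dnah9, Dnah3 and Dnah10 highest in round spermatid-like cells.

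Among inner arm heavy chains 6 of 9 peaked in the pachytene/diplotene-like class. Dnah2, a chain of the double-headed inner arm, measured 18.8, 21.6, 21.2 and 24.6 CPM there, against 5.53, 2.17, 1.44 and 0 CPM in leptotene/zygotene-like cells (log2 ratio 3.27, 2.04 to 4.90). It fell to 6.45 CPM in the diplotene-to-round-spermatid-like class, a log2 ratio of -1.74, which was -0.42 and -0.31 under the same 2 settings. Dnah1, whose loss in humans gives sperm with malformed tails, began earlier, at 25.9 CPM in leptotene/zygotene-like cells, against 8.62 CPM in spermatogonia-like cells, and reached 69.4 CPM in pachytene/diplotene-like cells.

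Dnah12, a further inner arm chain, measured 101, 61.7 and 81.9 CPM in the pachytene/diplotene-like, diplotene-to-round and round classes. The diplotene-to-round clusters were at 117 and 43.2 CPM, lower in the cluster with most of the UMI, so no dip is read from the pooled value. Dnah12 fell to 13.7 CPM in late round cells (log2 ratio -2.58 against round cells). The 3 Dnah7 genes were also lower in the class between spermatocytes and round spermatids, but the calls did not hold without the top 6% of doublet scores, where the log2 ratios of Dnah7a, Dnah7b and Dnah7c were -0.76, 0.20 and -0.12. With at least 1000 genes per cell they were -0.69, 0.33 and -0.22, and with the mean of per-cell CPM -0.79, -0.14 and 0.0013, also short of the call. Dnah7a measured 50.9, 95.3, 32.1 and 43.7 CPM from leptotene/zygotene-like to round spermatid-like cells, and its first step, from spermatogonia-like cells, was the members' highest there (log2 ratio 3.46, 2.68 to 4.35).

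Of words of 50 bases in the last 600 bases of the longest transcript, 53.4%, 33.0% and 54.1% for Dnah7a, Dnah7b and Dnah7c also occurred in another Dnah7 gene, so their counts may have been split or lost between copies.

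Dnah3, another inner arm chain, was at 2.25, 1.95, 2.83 and 1.61 CPM in pachytene/diplotene-like cells, at 60.6, 52.9, 54.4 and 49.6 CPM in diplotene-to-round-spermatid-like cells and at 99.1, 94.97, 89.5 and 89.8 CPM in round spermatid-like cells. Its onset class was that of Dnah9, with a log2 ratio of 4.65 (4.31 to 5.01) at the first of these steps. Its lower level in pachytene/diplotene-like than in leptotene/zygotene-like cells (log2 ratio -1.18) turned round under other clusterings, and 0.0233 UMI per cell in leptotene/zygotene-like cells lay under the 0.0310 in macrophage-like cells. Pooled levels of Dnah10 and Dnah6 were spread over both sides of meiosis, Dnah10 with 7.99, 13.3 and 13.6 CPM and Dnah6 with 13.8, 15.6 and 13.3 CPM in the pachytene/diplotene-like, diplotene-to-round and round classes, where neighbouring intervals overlapped for Dnah6. The 2 diplotene-to-round clusters differed, with Dnah10 at 26.5 and 8.94 CPM and Dnah6 at 32.1 and 10.1 CPM. The lower values were in the cluster with most of the UMI. Dnah14, a heavy chain whose place in the axoneme is unsure, peaked at 75.1 CPM in pachytene/diplotene-like cells, against 16.1 CPM in leptotene/zygotene-like cells.

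Radial spoke genes differed widely in timing. Rsph1, a spoke head protein, reached 4017, 4039.7, 3916 and 4271 CPM in pachytene/diplotene-like cells, against 1428, 1797, 1417 and 1320.4 CPM in leptotene/zygotene-like cells. Its rise had begun a class earlier, with a log2 ratio of 2.62 (2.51 to 2.74) over spermatogonia-like cells, and it was down to 1379.6 CPM in the diplotene-to-round-spermatid-like class.

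The spoke head paralogs Rsph6a and Rsph4a differed in germ cells. Rsph6a, the form of the sperm tail, measured 301, 366, 398 and 367 CPM in pachytene/diplotene-like cells, against 27.7, 54.3, 27.3 and 37.0 CPM in leptotene/zygotene-like cells (log2 ratio 3.35, 3.03 to 3.69). Rsph4a, the form of airway cilia, had 25 UMI over all germ cell classes, 19 of them in the pachytene/diplotene-like class. Rsph9, their partner in the spoke head, stayed between 225 and 342 CPM from the pachytene/diplotene-like to the late round class and fell to 34.9 CPM in elongating cells (log2 ratio -2.69). Cfap206, a protein at the base of a spoke, had a like course, from 779 CPM in the pachytene/diplotene-like class through 1059.6 CPM in round cells to 119.6 CPM in elongating cells. Rsph14 was later, at 12.8, 30.9 and 26.6 CPM in the pachytene/diplotene-like, diplotene-to-round and round classes.

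Rsph10b, Cfap61, Rsph3a and Rsph3b were at 42.6% or more of their peak in elongating cells. Rsph3a and Rsph3b had first fallen, from peaks of 72.6 and 19.8 CPM to 17.3 and 5.51 CPM in late round cells. Rsph10b measured 45.4, 45.4 and 44.7 CPM in round, late round and elongating cells, or 98.4% of its peak at the end, and its peak class differed between libraries. Cfap61, which belongs to the spoke base, was at 64.5% of its peak in the pooled elongating class (it was named after its values were seen). Between the elongating clusters it ranged from 3.46 to 25.1 CPM, lowest in the cluster with the highest Prm2. The median over members was 7.79% and over all genes 6.64%.

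Rsph3b, a spoke protein near-copied in Rsph3a, was the single member higher in elongating over late round cells, with 11.4, 18.5, 20.3 and 19.2 CPM in elongating cells, against 4.06, 6.43, 6.04 and 5.88 CPM in late round cells (log2 ratio 1.67, 1.41 to 1.93). Each library rose. Rsph3a measured 18.8, 34.5, 34.2 and 35.5 CPM in elongating cells, against 9.07, 19.0, 21.9 and 21.5 CPM in late round cells, which was higher in each library but under 2-fold in the pool.

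Library 1 stood apart for both Rsph3 genes. In pachytene/diplotene-like cells Rsph3a measured 18.4 CPM in library 1, against 96.6, 85.9 and 81.5 CPM in libraries 2 to 4, and Rsph3b 5.17 CPM, against 26.8, 25.1 and 19.6 CPM. Library 1 was under 50% of each other library for 29 of 6918 genes with at least 100 UMI in some library, and no more than 2 genes were so in any other library. Dynlt1a and Dynlt1f, tandem copies of a dynein light chain gene near Rsph3 on chromosome 17, were among these low genes at 65.1 and 199 CPM in library 1, against 315 to 340 and 585 to 628 CPM in the others. Dynlt1c, Ezr, Tagap1, Tcp10a and Fgfr1op, looked at with them, were not under 50% in library 1. Dynlt1c was at 24.7 CPM there, against 27.9 to 30.9 CPM. Tcp10a was at 233 against 281 to 301 CPM, and Fgfr1op at 98.6 against 76.8 to 83.1 CPM. Without library 1 Rsph3a peaked at 88.3 CPM and Rsph3b at 24.0 CPM in the same class. Of the Rsph3a and Rsph3b end words 87.7% occurred in the other gene, so reads may have been split or lost between the copies. Both genes were low in library 1, and the cause was not tested.

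**Figure D4:**
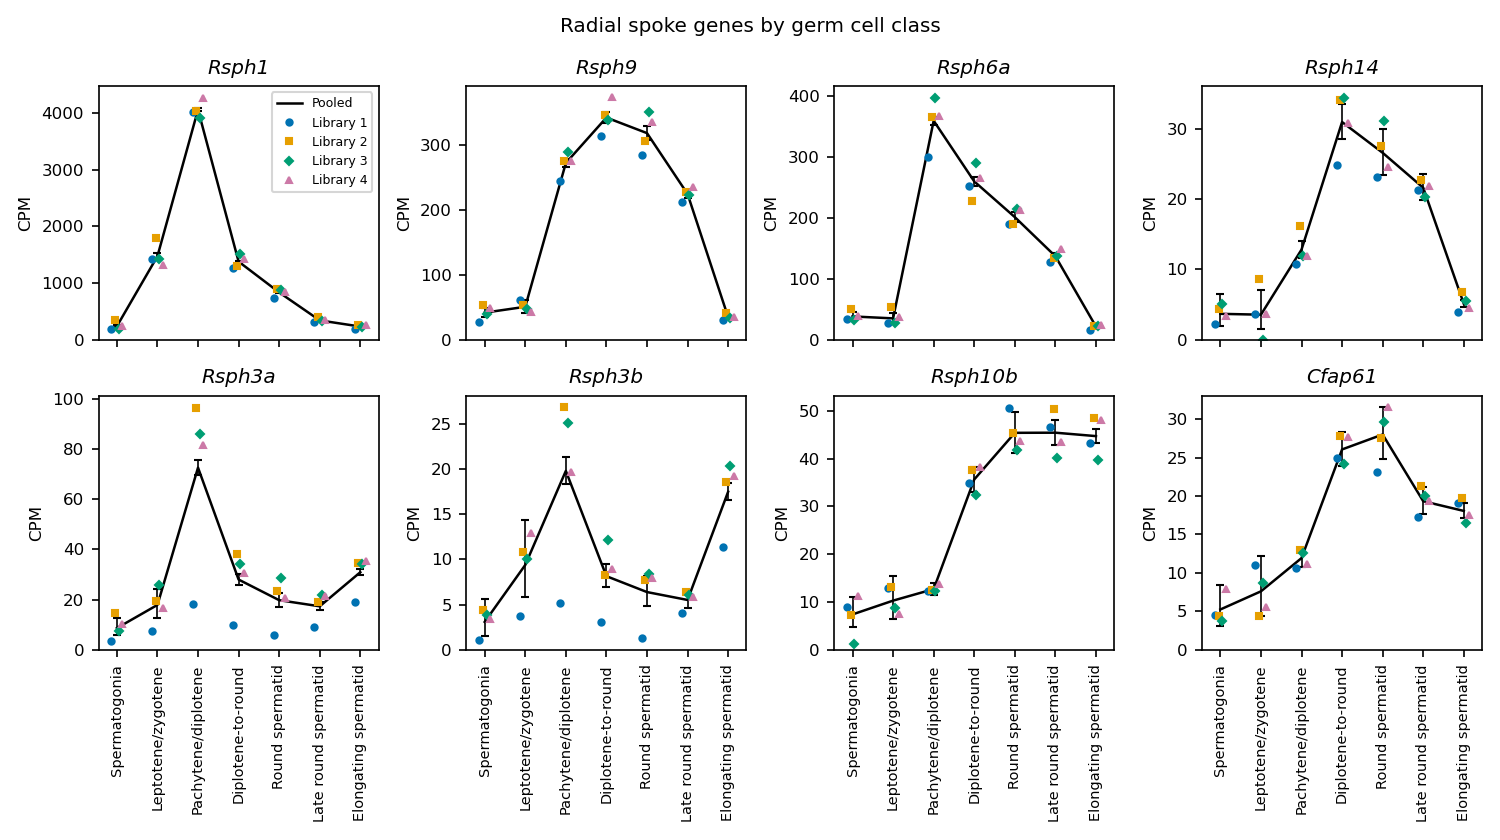
CPM of 8 radial spoke genes in 7 germ cell classes in developmental order, with lines for the pooled level, exact Poisson intervals and points for the 4 libraries. Library 1 lies below the others for Rsph3a and Rsph3b, and Rsph10b lies between 44.7 and 45.4 CPM from round to elongating cells.

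Pooled levels of central apparatus genes divided by timing. Cfap46 measured 30.4, 23.1, 24.4 and 28.3 CPM in pachytene/diplotene-like cells, against 1.84, 2.17, 4.32 and 0 CPM in leptotene/zygotene-like cells (log2 ratio 3.56, 2.33 to 5.19). Cfap74 and Cfap70 peaked in the same class, and Cfap54 a class later at 21.4 CPM. In the diplotene-to-round clusters Cfap46 was at 46.3 and 6.82 CPM and Cfap54 at 37.0 and 16.2 CPM. The lower values were in the cluster with most of the UMI. In pachytene/diplotene-like clusters Cfap46 was at 24.8 to 27.9 CPM and Cfap54 at 16.8 to 19.0 CPM. Both genes were highest in the same diplotene-to-round cluster, so their order in the pool depends on how clusters are weighted. Cfap221 instead had its highest pooled level, 41.6 CPM, in late round cells, against 29.7 CPM in round cells, and fell to 3.71 CPM in elongating cells. Its clusters overlapped, at 42.2, 14.1 and 44.9 CPM in the late round class and 21.7 and 44.9 CPM in the round class. Cfap69, whose loss in mice gives short malformed tails, was highest in round spermatid-like cells at 261 CPM and still at 187 CPM (71.5% of its peak) in elongating cells.

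Genes of proteins inside the doublet microtubules mostly peaked in the class after the pachytene/diplotene-like class. Of the 7 genes of proteins inside the doublets 6 peaked in the diplotene-to-round-spermatid-like class, where 10.1% of all genes peaked. Cfap45 measured 639, 657, 654 and 661 CPM there, against 259, 314, 311 and 326 CPM in pachytene/diplotene-like cells (log2 ratio 1.10, 1.07 to 1.14). The ratio of Cfap45 fell short of the call at resolution 2 (0.77), with all genes among the variable genes (0.94) and with the mean of per-cell CPM (0.88). Cfap126 was at 558 CPM, against 177 CPM, and its log2 ratio fell just short with the mean of per-cell CPM (0.96). Cfap52, Cfap53 and Cfap161 peaked in that class at 236, 299.7 and 260.1 CPM, and Cfap52 was down to 30.1 CPM in late round cells. Cfap161 was higher in a pachytene/diplotene-like cluster, at 343 CPM, than in the diplotene-to-round clusters, at 278 and 254 CPM. Cfap20, found in motile and primary cilia alike, was the early exception, with 98.2, 257 and 318 CPM in spermatogonia-like, leptotene/zygotene-like and pachytene/diplotene-like cells.

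Cfap77 and Cfap100 were low in pachytene/diplotene-like cells. Cfap77 reached 70.4, 67.5, 72.8 and 63.3 CPM in the diplotene-to-round-spermatid-like class, against 5.57, 7.05, 5.20 and 5.96 CPM in the class before. Cfap100, a modifier of inner arms in Chlamydomonas, measured 2.92, 2.28, 1.58 and 3.23 CPM in pachytene/diplotene-like cells, then 82.7, 56.3, 49.1 and 63.3 CPM, then 143, 133, 129 and 133 CPM in round spermatid-like cells. Both log2 ratios were past the call, at 4.67 and 1.09, and the second fell just short of 2-fold without library 3 (0.9966). With at least 1000 genes per cell and without the top 6% of doublet scores it was 0.69 and 0.55. Cfap58 followed with 159 CPM in the diplotene-to-round-spermatid-like class, against 25.6 CPM in pachytene/diplotene-like cells. The tethers Cfap43 and Cfap44, whose loss disorders the axoneme of sperm, were high through the same span, Cfap43 with 116, 114 and 92.9 CPM and Cfap44 with 32.3, 54.8 and 46.4 CPM from pachytene/diplotene-like to round spermatid-like cells. Cfap57, listed with them, was highest at 85.4 CPM in pachytene/diplotene-like cells, and Cfap73, an inner arm modifier, had few counts, with 33 UMI at its peak of 1.64 CPM. Among the other Cfap genes Cfap97 was highest in pachytene/diplotene-like cells at 416 CPM, while Cfap157 and Cfap99 peaked a class later at 169.7 and 6.60 CPM.

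Genes of other axoneme complexes took the same first step. In pachytene/diplotene-like over leptotene/zygotene-like cells 10 of 12 dynein assembly factors, 4 of 5 dynein intermediate and light chains, 4 of 5 docking complex genes, 6 of 7 nexin-dynein regulatory complex genes and 6 of 7 further central apparatus genes rose, against 23.6% of all genes. Spag6 alone was past 2-fold lower, but its leptotene/zygotene-like level of 0.309 UMI per cell was close to the 0.256 in macrophage-like cells, and no fall is read from it. Of 9 transcription factors of cilia and spermatids 3 rose (Rfx2, Rfx4 and Tcfl5) and Rfx3 fell, against 23.6% and 33.5% of all genes. Rfx2, needed for spermatids to build tails in mice, was at 126 CPM, against 30.8 CPM. Foxj1, a regulator of motile cilia, had its onset in the diplotene-to-round-spermatid-like class.

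Leydig-like cells, which make testosterone and have no motile cilium, held transcripts of 3 members above other somatic classes. Dnah2os measured 31.1, 64.4, 45.2 and 49.6 CPM there and had 1 UMI in all germ cell classes. Its 120 UMI were 90.2% of those in kept cells and lay in 94 of 328 cells (28.7%, exact interval 23.8 to 33.9%). Dnah2 measured 32.7, 27.3, 30.6 and 25.4 CPM and Dnah9 13.1, 32.2, 19.9 and 15.7 CPM in the same cells. Dnah2os lies on the plus strand of chromosome 11 (69448548 to 69453676) within Dnah2 on the minus strand (69420809 to 69549110, GENCODE M21 on GRCm38). The sources used here do not give the strand used in counting, and whether either count holds reads of the other gene was not tested. The counts differed by class, with 1032 UMI of Dnah2 and 1 of Dnah2os in germ cell classes.

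**Figure D5:**
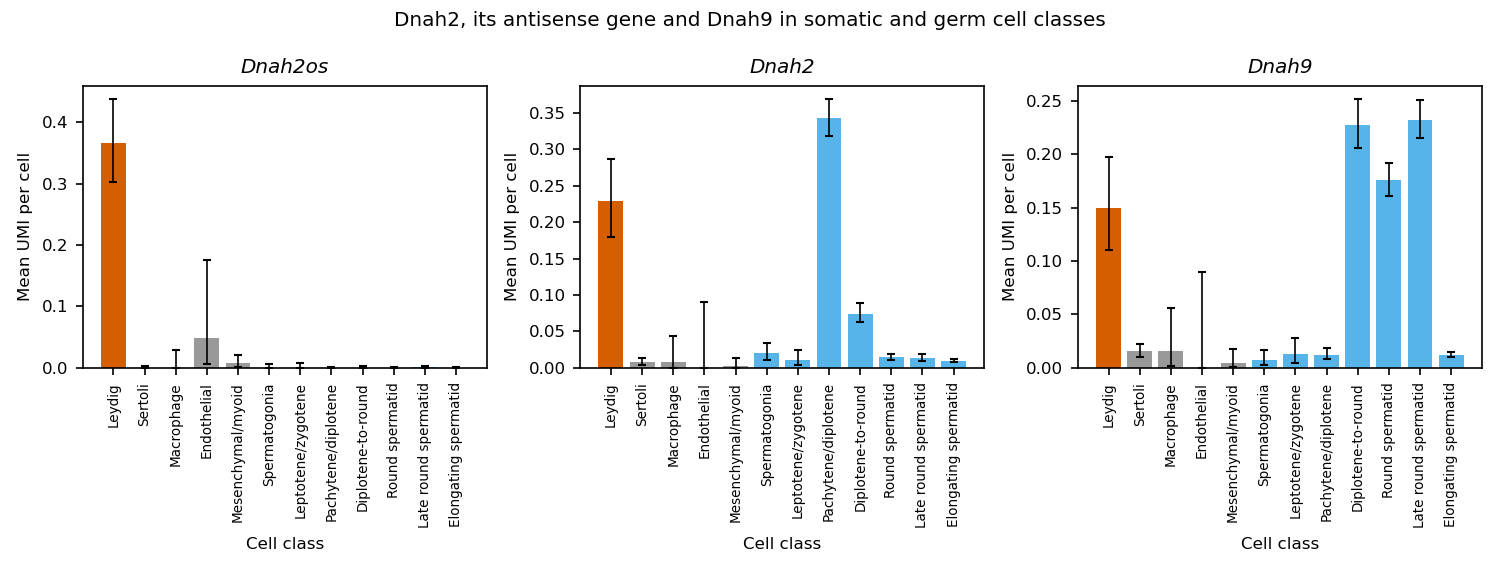
Mean UMI per cell, with exact Poisson intervals, of Dnah2os, Dnah2 and Dnah9 in 5 somatic and 7 germ cell classes. Dnah2os is highest in Leydig-like cells at 0.366 UMI per cell, while Dnah2 and Dnah9 are detected both there and in germ cell classes.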

How the data were processed

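The authors deposited unnormalised UMI counts for each gene in each barcode, from Cell Ranger 3.0.2 per the file headers. The submitters' processing notes also name bcl2fastq 2.19.1.403 and mm10. The annotation release and strand setting are not given in the sources used here, and 28339 of 28692 gene IDs were found in GENCODE M21. The members, lists and rules were chosen with earlier results of these data known.

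A cell was kept if 500 or more genes were detected and mitochondrial UMI made up 10% or less (29968 of 32273). Scrublet in scanpy 1.11.5 marked 1 as a doublet (0.00334%), so the caller did not work. Of the barcode sequences 497 occurred in more than 1 library. Cells were scaled to 10000 counts, and 2000 variable genes without the members and listed axoneme genes gave 30 principal components, 15 neighbours and leidenalg 0.10.2 clusters at resolution 1. Other genes expressed with the members stayed in, so timing is not independent of the classes. Clusters were named by mean marker scores. How scores became names was decided once clusters were known, and pachytene and diplotene cells were merged after the members' levels had been printed. Because naming was rebuilt here, differences from the study's own classes may come from it.

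UMI were summed per class and divided by the class total (CPM), using numpy 2.4.6 and scipy 1.17.1. A ratio of a gene with 0 UMI used a floor of 3 counts over the class. A library entered the direction check with at least 20 cells in both classes. Intervals are exact Poisson for levels, exact conditional binomial for ratios and Clopper-Pearson for shares, at 95%, and with the floors they cover counting error only. The code was checked on simulated counts. Genes were named by the largest ratio of peak to other classes (6 per class), the 8 highest and 8 lowest ratios per pair of classes, and 16 genes of particular families. Cfap61, Dynlt1a, Dynlt1f, the genes set beside them and the Leydig-like comparison were chosen after values had been seen. The planned edgeR test between genotypes was not run, since no label ties a library to a sample. Settings that were varied are listed in the closing section.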

Additional observations from a re-analysis of the deposited data

How the results depend on the processing

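No paired analysis was possible because no label ties a library to a sample, and for the same reason a test between genotypes was run under no setting. Depth differs between classes and within them, and classes of few UMI leave low genes untested. Of 126 gene calls, 2053 recomputed values included 1773 on the same side of the call, 261 short of it and 19 of the opposite sign. The cause of these changes was not tested. Resolution 0.5, the filter at 1000 genes and the limit of 20% mitochondrial UMI each found 6 germ cell classes, and pairs with the absent class gave no value.

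Counts of members that moved by more than 1.5 times were as follows. At resolution 0.5, 34 were higher and 3 lower in leptotene/zygotene-like over spermatogonia-like cells, 10 were higher in pachytene/diplotene-like over leptotene/zygotene-like cells and 19 peaked in the spermatid classes. At resolution 2, 0 were lower in pachytene/diplotene-like over leptotene/zygotene-like cells, and 5 were higher and 3 lower in round over diplotene-to-round cells. With at least 1000 detected genes, 4 were lower in diplotene-to-round over pachytene/diplotene-like cells, 17 in round over diplotene-to-round cells and 14 in late round over round cells, and 5 peaked in the spermatid classes. With at most 20% mitochondrial UMI, 0 were lower in pachytene/diplotene-like over leptotene/zygotene-like cells and 23 in elongating over late round cells, and 20 peaked in the spermatid classes.

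With the top 6% of doublet scores removed, 0 were lower at the first step and 0 at the second, 3 in diplotene-to-round over pachytene/diplotene-like cells and 15 in round over diplotene-to-round cells, where 1 was higher, and 6 peaked in the spermatid classes. With all genes among the variable genes, 0 were lower in pachytene/diplotene-like over leptotene/zygotene-like cells and 5 higher in round over diplotene-to-round cells. Without the 20 most abundant genes, 2 were higher in elongating over late round cells. With the mean of per-cell CPM, 4 were higher and 2 lower at the first step, 0 lower at the second, 1 lower in diplotene-to-round over pachytene/diplotene-like cells and 8 lower in round over diplotene-to-round cells.

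At 1.5-fold, 15 were lower in diplotene-to-round over pachytene/diplotene-like cells, 6 higher and 10 lower in round over diplotene-to-round cells and 2 higher in elongating over late round cells. At 3-fold, 4 were higher at the first step, 0 lower at the second, 1 lower in diplotene-to-round over pachytene/diplotene-like cells, 0 higher in round over diplotene-to-round cells and 8 lower in late round over round cells. With no minimum of UMI, 11 were higher at the first step and 1 lower in round over diplotene-to-round cells. With the ratio and each library's direction taken relative to the median gene, 0 were lower at the second step, 4 higher in round over diplotene-to-round cells, 12 lower in late round over round cells, and 6 higher and 13 lower in elongating over late round cells.

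With each library left out in turn, 33 to 35 members were higher in pachytene/diplotene-like over leptotene/zygotene-like cells and 1 to 2 lower, 0 were lower in leptotene/zygotene-like over spermatogonia-like cells, and 1 to 3 were higher and 0 to 2 lower in round over diplotene-to-round cells. Calls of Dnah14, Cfap77 and Dnah5 at steps with 52 to 54 UMI over both classes were lost there because fewer than 50 UMI remained.

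The log2 ratio of Dnah3 in pachytene/diplotene-like over leptotene/zygotene-like cells turned to 1.73 at resolution 0.5, 1.61 at resolution 2, 1.22 with all genes among the variable genes and 0.46 with the mean of per-cell CPM. Resolution 0.5 also turned that of Dnah7b (-0.93), Dnah7c (-0.74), Cfap74 (-0.12), Cfap46 (-0.12), Cfap54 (-0.075), Dnah1 (-0.0415), Dnah2 (-0.0378), Dnah17 (-0.027), Dnah8 (-0.17) and Rsph1 (-0.30). In diplotene-to-round over pachytene/diplotene-like cells Dnah7b turned to 0.33 with at least 1000 detected genes and 0.20 with the top 6% of doublet scores removed, and Dnah7c to 0.0013 with the mean of per-cell CPM. Relative to the median gene, Cfap126 (0.25) and Cfap99 (0.13) turned in elongating over late round cells. The peak class of 42 to 45 of the 46 members with one held when 1 library was left out. Without the deepest late round cluster, chosen after seeing the data, 6 gene calls fell short and none turned.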
